A study of Mus musculus with 24 samples.

Results

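The clock genes described here were Arntl, Clock, Npas2, Cry1, Nfil3, E2f8 and Arntl2, chosen by name as a list for the phase of Arntl, the gene of BMAL1. The phase of each member was not measured here, and E2f8 and Arntl2 did not follow Arntl across the mice (r = -0.26 and -0.24). The 7 genes were read from the probes of an Agilent mouse expression array whose gene name in the scanner output exactly matched 1 of these 7 symbols (of 37074 gene names on the array), which gave 17 of 56605 probes, and 13 probes of 6 genes were bright enough to be tested. Liver RNA of 24 male C57Bl6J mice of the third generation of 2 lineages was hybridised, 1 array in 1 colour (Cy3) per mouse. The reference group (9 mice, labelled STD_Cont) came from the lineage whose chow had been enriched with high-oleic sunflower oil and was given a low-fat diet. The HFoleic group (8 mice, HFD_Cont) was of the same lineage and the HFepa group (7 mice, HFD_O3) of a lineage whose chow held eicosapentaenoic acid (EPA) from fish oil, and both were put on an obesogenic diet with much fat and sucrose. The EPA lineage had no low-fat group on these arrays, so HFepa differs from the reference group in diet and lineage together. Whole liver was used, so that fewer cells of a type and less RNA per cell cannot be told apart. The mice were kept under a light-dark cycle and killed during the fasting period. The age of the mice and the hour at which each was killed are not given in the sources used here, and with 1 liver per mouse a change in level and a change in timing cannot be told apart.

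In the circadian clock, BMAL1 pairs with CLOCK, or with its relative NPAS2, and the pair binds E-boxes to switch on the Per and Cry genes, the nuclear receptor genes Nr1d1 and Nr1d2, and the PAR bZIP genes Dbp, Tef and Hlf. The PER and CRY proteins then inhibit the pair, while REV-ERB proteins, made from Nr1d1 and Nr1d2, repress and ROR proteins activate genes that carry a ROR response element, among them Arntl itself. Because this second loop follows the first, transcripts of Arntl and of genes under the same elements run in the opposite phase to Dbp and Nr1d1 in the liver, where the clock is also tuned by feeding and fasting.

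The promoter windows of 3 members are shown because they held a clock-related motif in the 300 bases from 250 before to 50 after a start site (RefSeq, GRCm38.p6, read 5′ to 3′ along the gene). Capitals mark the motifs. The Arntl window, at chr7:113207261-113207560 on the plus strand, held 2 cores of the ROR response element, TAGGTTA beginning at position -6 and TAGGTCA at position 31, counted from the start site as position 1. The Nfil3 window, at chr13:52980990-52981289 on the minus strand, held TAGGTCA on the strand opposite to the gene, printed below as its reverse complement, beginning at position -12. The Cry1 window, at chr10:85185005-85185304 on the minus strand, held the E-box CACGTG at position -60.
Arntl: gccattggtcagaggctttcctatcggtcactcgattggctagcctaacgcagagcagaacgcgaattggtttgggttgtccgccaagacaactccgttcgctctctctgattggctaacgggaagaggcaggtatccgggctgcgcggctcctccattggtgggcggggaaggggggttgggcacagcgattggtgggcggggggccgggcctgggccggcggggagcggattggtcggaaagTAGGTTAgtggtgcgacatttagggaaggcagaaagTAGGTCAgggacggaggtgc
Nfil3: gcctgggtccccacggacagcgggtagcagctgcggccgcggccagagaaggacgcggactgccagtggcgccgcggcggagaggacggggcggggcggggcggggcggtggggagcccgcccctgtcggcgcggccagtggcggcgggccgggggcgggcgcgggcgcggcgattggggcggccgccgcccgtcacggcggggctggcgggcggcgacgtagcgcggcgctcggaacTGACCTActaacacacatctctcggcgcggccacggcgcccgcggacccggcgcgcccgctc
Cry1: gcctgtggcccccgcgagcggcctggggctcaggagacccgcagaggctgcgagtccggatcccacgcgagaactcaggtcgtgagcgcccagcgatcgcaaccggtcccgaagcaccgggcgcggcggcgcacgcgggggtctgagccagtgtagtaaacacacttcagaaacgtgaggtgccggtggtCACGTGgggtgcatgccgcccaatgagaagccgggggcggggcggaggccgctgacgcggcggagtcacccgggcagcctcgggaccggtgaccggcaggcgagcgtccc
All 7 members had a window, 10 windows in all, and those of Clock, Npas2, E2f8 and Arntl2 held none of the motifs searched, which were the ROR core as TAGGTCA or as TGGGTCA or as TAGGTTA, the E-box CACGTG and the D-box TTANGTAA, each on both strands. Among 32851 promoter windows of the same length, 7.81% held any of the 3 ROR cores, 7.15% the E-box and 2.32% the D-box. The 3 forms of the ROR core were chosen with the Arntl promoter known, and a match is a description of letters, not a site.

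On each array 28804 to 34432 probes were well above background, the median signals of the arrays lay between 59.5 and 89.0, and no array had a saturated spot. Each of the 3 slides held 8 arrays, in rows 1 and 2, and mice of every group. Arrays in row 2 had 350 to 627 spots marked as outliers, and those in row 1 had 134 to 191. The arrays in row 2 of slide 3 had 28804 to 30271 probes well above background, in the lower part of the range. Levels are log2 median spot signals after quantile normalization between arrays, so a difference of 1 is a doubling, and levels of different probes are not compared. The hepatocyte genes Alb, Ttr, Apoa1, Cps1, Cyp2e1 and Tat were well above background on all 24 arrays. Limma called 2 of these 6 lower in HFoleic against reference, Cps1 (-0.89, adjusted p = 0.00166), an enzyme of the urea cycle, and Tat (-0.63, adjusted p = 0.00859), which breaks down tyrosine and is also in the list of fasting genes. The summed hepatocyte level, on the log2 scale, was 19.41 to 19.75 in the reference mice, 19.63 to 19.73 in the HFoleic mice and 19.63 to 19.71 in the HFepa mice. Of the markers of other liver cells, limma called 0 of 4 T and NK cell genes, 0 of 6 Kupffer cell genes and 0 of 4 endothelial genes in HFoleic against reference (0, 1 and 1 at an unadjusted p under 0.05), whereas Lrat, 1 of 4 stellate genes, was higher by 0.56 and Sox9, 1 of 3 bile duct genes, was lower, with a log2 difference of -0.65. Over all tested probes 7.23% were called in this comparison, and 21.1% had an unadjusted p under 0.05. The summed level of the stellate genes, on the log2 scale, was 11.85 to 12.88 in the reference mice, 12.20 to 12.68 in the HFoleic mice and 12.32 to 12.67 in the HFepa mice, and that of the bile duct genes was 8.12 to 9.95, 8.05 to 8.49 and 8.17 to 8.59. Their part in the results below was not tested.

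Arntl had 3 tested probes, and because they disagree in the size of the difference their sequences are given. The brightest (A_52_P267651, chr7:120456978-120457037, plus strand, build mm9, as in the scanner files) is the probe used for Arntl below. The second in brightness was A_66_P127371, whose 60 bases span chr7:120435023-120436706 and so cross a gap in the genome, and the third was A_55_P2735445 at chr7:120439030-120439089. The files give no exon or UTR label for these positions.
A_52_P267651: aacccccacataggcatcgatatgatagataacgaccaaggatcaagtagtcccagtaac
A_66_P127371: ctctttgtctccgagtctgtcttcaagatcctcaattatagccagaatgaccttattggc
A_55_P2735445: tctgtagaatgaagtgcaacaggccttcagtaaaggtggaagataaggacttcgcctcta

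Arntl, the activator at the core of the clock, had a lower mean in the HFoleic and HFepa groups than in the reference group, but neither difference passed the threshold in limma. In the 9 reference mice its log2 signal ran from 9.11 through a median of 9.43 to 9.58. In the 8 HFoleic mice it ran from 8.11 through 8.64 to 9.32, and 6 of them lay below every reference mouse. The 7 HFepa mice had 7.30, 8.27, 8.74, 8.81, 9.22, 9.32 and 9.72. Thus the reference mice lay close together, 6 of the 8 HFoleic mice lay below them and the other 2, at 9.31 and 9.32, within their range, and the HFepa mice spread to both sides, with 4 below every reference mouse and 1 above. The SD among mice was 0.15 in the reference group, 0.45 in the HFoleic group and 0.80 in the HFepa group; these are descriptions, and the difference in spread was not tested.

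The log2 difference of Arntl between HFoleic and reference was -0.70 (95% CI -1.18 to -0.22, SE 0.23), or 0.615 times the reference level, with 8 of 8 HFoleic mice below the reference mean. It did not pass the threshold of 0.05 in limma fitted to all 24 arrays (adjusted p = 0.0663). It passed where the spread was taken otherwise: with the arrays of these 2 groups alone (adjusted p = 0.00922, limma) and in the methods' t-test with the adjustment over all tested probes (adjusted p = 0.0204). Leaving out 1 mouse in turn gave differences from -0.79 to -0.62 and limma adjusted p from 0.0142 to 0.124, past the threshold without HFoleic replicate 3 (0.0450), HFoleic replicate 4 (0.0448), HFepa replicate 2 (0.0452) or HFepa replicate 4 (0.0142). Within slides the difference was -0.44, -0.99 and -0.77. The other Arntl probes gave -0.41 (limma adjusted p = 0.178) and -0.32 (adjusted p = 0.563, fitted without 1 HFoleic and 1 HFepa array on which the spot was marked as an outlier). On the latter probe HFoleic replicate 4 read 8.80, and the other HFoleic arrays with a value read 6.23 to 7.20.

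Between HFepa and reference, Arntl differed by -0.62 (95% CI -1.11 to -0.12, limma adjusted p = 0.246), with 6 of 7 HFepa mice below the reference mean. HFepa replicate 4, at 7.30, carried much of this: without it the difference was -0.37 (limma adjusted p = 0.419). Between slides it ran from -0.12 to -1.58, the latter on slide 3, which held that mouse. On slide 3 both HFepa arrays, replicates 4 and 7 (7.30 and 8.27), lay in row 2. Reference replicate 8 (9.11) lay in row 2 as well, but reference replicates 3 and 4 (9.46 and 9.52) lay in row 1. Group and row were thus unbalanced on that slide, and the part of position was not tested. HFepa and HFoleic differed by 0.08 (95% CI -0.42 to 0.59, limma adjusted p = 0.950). The interval is wide: its upper end comes near the size, though not the sign, of the -0.62 between HFepa and reference. The order of the group means was therefore reference, HFepa, HFoleic, and no neighbours in it passed the threshold. The comparisons of HFoleic and of HFepa with the reference group share the same 9 reference arrays.

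**Figure D1:**
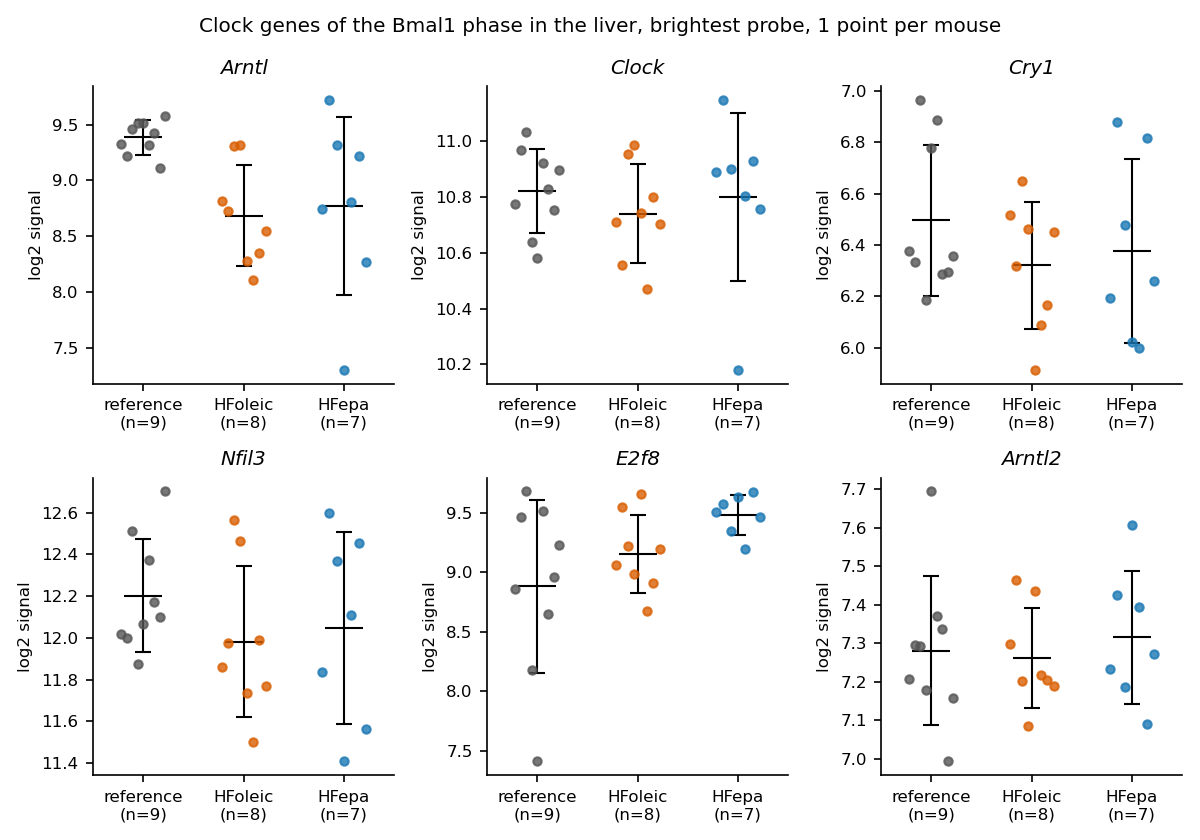
Log2 signal of the brightest probe of the 6 tested members in each mouse (1 point per mouse; reference, HFoleic and HFepa groups; the horizontal mark is the mean and the bar 1 SD). Arntl lay between 9.11 and 9.58 in the reference mice and between 7.30 and 9.72 in the HFepa mice, whereas E2f8 had its widest range, 7.41 to 9.69, in the reference mice.

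Across the family, 0 of 13 tested probes were called in HFoleic against reference by limma, where 7.23% of the 30003 tested probes were called (4.05% higher and 3.19% lower). At an unadjusted p under 0.05 there were 2 of 13, both of Arntl, beside 21.1% of all tested probes. In HFepa against reference 0 of 13 were called, against 0.393% of all tested probes, with 3 of 13 at an unadjusted p under 0.05 beside 13.5% of all. In HFepa against HFoleic 0 of 13 were called and 0% of all tested probes, and the unadjusted count was also 0 of 13, beside 9.70% of all. By the methods' t-test 1, 0 and 0 of the member probes were called, the 1 being the brightest Arntl probe. Over all 30003 tested probes that t-test called 1746, 0 and 0. By the brightest probe 5 of 6 genes lay lower in HFoleic than in reference, with a median log2 difference of -0.13 beside -0.01 over the 20192 genes tested.

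Clock, the partner of BMAL1 and a histone acetyltransferase, showed small differences. Its brightest probe (A_55_P2746404) read 10.58 to 11.03 in the reference mice (median 10.83), 10.47 to 10.99 in the HFoleic mice (median 10.73) and 10.18 to 11.15 in the HFepa mice (median 10.89). The groups overlapped throughout, and HFepa replicate 4, the mouse lowest in Arntl, was also lowest in Clock. The log2 difference was -0.08 in HFoleic against reference (95% CI -0.29 to 0.13, limma adjusted p = 0.710) and -0.02 in HFepa against reference (95% CI -0.23 to 0.19, adjusted p = 0.964), the latter turning to 0.08 without HFepa replicate 4. The other tested Clock probes gave -0.17 and -0.10 in HFoleic against reference and 0.05 and 0.04 in HFepa against reference. A Clock probe that was not tested was well above background on 12 arrays.

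Npas2, the relative that can replace CLOCK, was near the limit of detection. Its probe (A_52_P534749) was well above background on 1 of 9 reference arrays, 0 of 8 HFoleic arrays and 1 of 7 HFepa arrays. It was not well above background elsewhere, so that no fold change is given. Arntl2, the BMAL1 paralogue, had 1 tested probe, which read 6.99 to 7.69 in the reference mice (median 7.29), 7.09 to 7.46 in the HFoleic mice (median 7.21) and 7.09 to 7.61 in the HFepa mice (median 7.27). All HFoleic and HFepa mice lay within the reference range, and the differences from the reference group were -0.02 (95% CI -0.19 to 0.15) and 0.04 (95% CI -0.14 to 0.21). Its second probe was well above background on 2 of 24 arrays.

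Cry1, a repressor of the CLOCK and BMAL1 pair, was dim. Its brighter probe (A_55_P2880103) read 6.18 to 6.97 in the reference mice (median 6.36), 5.91 to 6.65 in the HFoleic mice (median 6.38) and 6.0 to 6.88 in the HFepa mice (median 6.26). In each obesogenic group some mice fell below all reference mice, 3 of 8 in HFoleic and 2 of 7 in HFepa, and none rose above them. The log2 difference from the reference group was -0.18 in HFoleic (95% CI -0.46 to 0.11, limma adjusted p = 0.517) and -0.12 in HFepa (95% CI -0.41 to 0.18, adjusted p = 0.794). The second probe, well above background on 18 of 24 arrays, gave -0.02 in both.

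Nfil3, which encodes a bZIP repressor that competes with DBP, TEF and HLF for D-boxes, had its 2 probes overlapping by most of their length. The brighter (A_55_P2035320) read 11.88 to 12.70 in the reference mice (median 12.10), 11.50 to 12.56 in the HFoleic mice (median 11.92) and 11.41 to 12.60 in the HFepa mice (median 12.11). In HFoleic 4 of 8 mice, and in HFepa 3 of 7, lay below every reference mouse, and none lay above. The differences from the reference group were -0.22 (95% CI -0.56 to 0.12, limma adjusted p = 0.494) and -0.15 (95% CI -0.51 to 0.20, adjusted p = 0.770).

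E2f8, an atypical E2F that represses cell cycle genes and is linked to polyploidy of hepatocytes, had higher means in both obesogenic groups than in the reference group. Its brightest probe (A_55_P2000833) read 7.41 to 9.69 in the reference mice (median 8.96), 8.67 to 9.66 in the HFoleic mice (median 9.13) and 9.19 to 9.68 in the HFepa mice (median 9.50). All HFepa and HFoleic mice lay within the range of the reference mice, which was wide because reference replicate 5 read 7.41 and replicate 4 read 8.18. The log2 difference in HFepa against reference was 0.60 (95% CI 0.12 to 1.08, limma adjusted p = 0.246), with 7 of 7 HFepa mice above the reference mean, and 0.42 without reference replicate 5 (adjusted p = 0.339). A second probe, which the scanner files assign to another E2f8 transcript, gave 0.76 (95% CI 0.27 to 1.25, limma adjusted p = 0.139), the smallest p among the members in this comparison. In HFoleic against reference the difference was 0.27 (95% CI -0.19 to 0.74, adjusted p = 0.539), and 0.09 without reference replicate 5. HFepa and HFoleic differed by 0.33 (95% CI -0.17 to 0.82, adjusted p = 0.684), with 7 of 7 HFepa mice above the HFoleic mean. The order of the E2f8 means was HFepa, HFoleic, reference, with no neighbours past the threshold. For Clock, Cry1, Nfil3 and Arntl2 too, no pair of groups passed, and by the brightest probe HFepa differed from HFoleic by 0.06, 0.06, 0.07 and 0.05. The other tested Clock probes gave 0.22 (95% CI -0.02 to 0.46) and 0.14 (95% CI -0.07 to 0.36) in that comparison. The second Cry1 probe gave -0.0012 and the second Nfil3 probe 0.07. Of 13 tested genes of the E2F family and of proliferation, limma called 1 in HFoleic against reference (E2f6, 0.18 higher, adjusted p = 0.0426), beside 7.23% of all tested probes. In HFepa against reference and in HFepa against HFoleic 0 were called, beside 0.393% and 0%. At an unadjusted p under 0.05 there were 2, 1 and 1, beside 21.1%, 13.5% and 9.70% of all tested probes. The proliferation gene Mki67 differed by -0.11 in HFoleic and -0.18 in HFepa from the reference group.

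**Figure D2:**
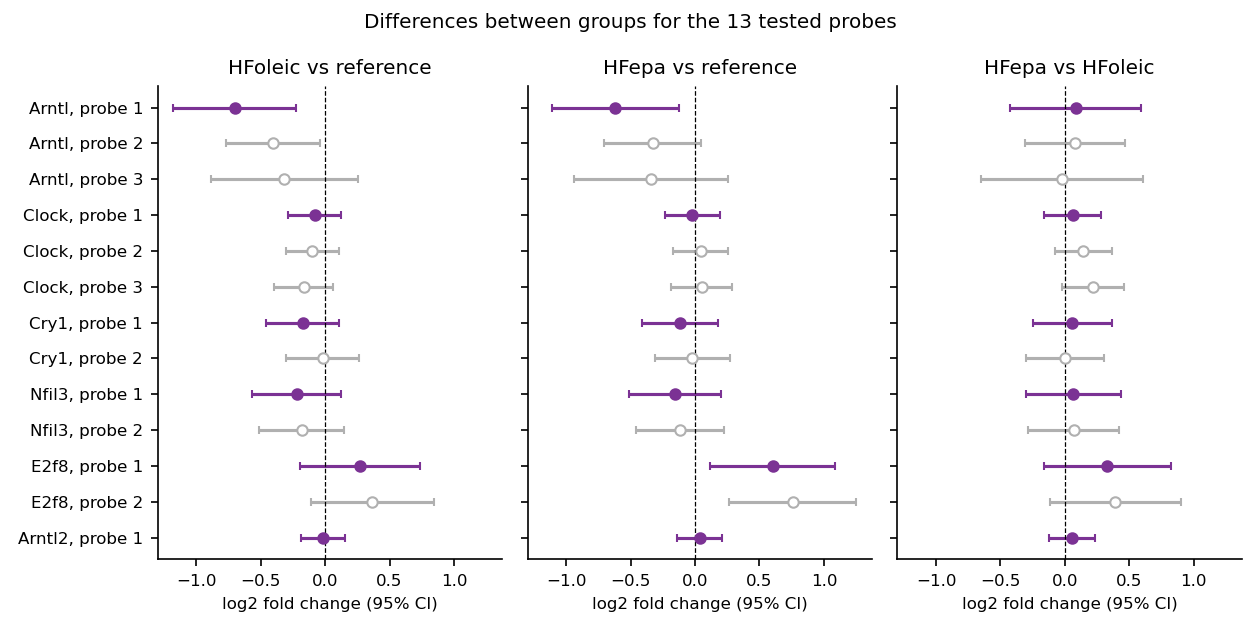
Log2 fold change (points) with its 95% confidence interval (bars) for the 13 tested probes in the 3 comparisons, the brightest probe of each gene filled and the others open; probes of a gene are numbered by brightness. The intervals of Arntl probe 1 lie below 0 in both comparisons with the reference group and those of both E2f8 probes above 0 in HFepa against reference, but none of these passed the adjusted threshold.

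The opposite arm of the clock, taken as a list of Per-phase genes, was then read in the same mice. Of 14 symbols listed, 13 were names on the array (all but Gm129) and 11 were tested (Ciart and Bhlhe41 were too dim). In HFoleic against reference 10 of 11 lay higher, with a median log2 difference of 0.54 beside -0.01 over all genes, and limma called 2 genes, both higher (7 of 11 at an unadjusted p under 0.05, beside 21.1% of all tested probes). By probes this was 4 of 21 called higher, where 4.05% of all tested probes were higher. The 2 genes were Nr1d2, encoding REV-ERB beta (0.58, 95% CI 0.30 to 0.86, adjusted p = 0.0100), and Bhlhe40, encoding a repressor at E-boxes (0.75, 95% CI 0.32 to 1.18, adjusted p = 0.0265). Dbp read 9.77 to 12.90 in the reference mice (median 10.46) and 10.25 to 13.96 in the HFoleic mice (median 12.73), a difference of 1.60 (95% CI 0.32 to 2.87, adjusted p = 0.125). Per1 went the other way, with a difference of -0.86 (adjusted p = 0.163). In HFepa against reference 9 of 11 lay higher, the median was 0.28 and 0 were called by limma, beside 0.393% of all tested probes. The methods' t-test called 0 of them and 0 of all tested probes. In limma 6 of 21 probes had an unadjusted p under 0.05, beside 13.5% of all. The Per-phase probe count of 4 of 21 in HFoleic against reference was sensitive to single mice: it was 10 without reference replicate 8, 1 without HFoleic replicate 7, and 2 without reference replicate 6 or 7 or HFoleic replicate 2 or 6.

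Regulators of the Arntl promoter and of clock protein turnover were read next. Of the 11 tested, among them Rora, which encodes an activator at ROR elements, 0 were called by limma in each of the 3 comparisons (0, 1 and 1 at an unadjusted p under 0.05). Over all tested probes 7.23%, 0.393% and 0% were called, and 21.1%, 13.5% and 9.70% had an unadjusted p under 0.05. Rora differed by -0.09 in HFoleic against reference. Fasting genes moved with the HFoleic group: 8 of 10 were lower by limma, where 3.19% of all tested probes were lower, among them Pck1 (-0.74, adjusted p = 0.000602), the gluconeogenic enzyme PEPCK, and Igfbp1 (-1.34, adjusted p = 0.00344). Of the 10 rhythmic output genes tested, Por (-0.67, adjusted p = 0.000253), the electron donor of cytochromes P450, and Cyp7a1 (-1.61, adjusted p = 0.00821), the rate-limiting enzyme of bile acid synthesis, were lower in HFoleic. In HFepa against reference 0 of either list were called by limma, beside 0.393% of all tested probes. At an unadjusted p under 0.05 there were 6 of 10 fasting genes and 2 of 10 outputs, beside 13.5% of all. The summed level of the fasting genes, on the log2 scale, was 18.69 to 19.16 in the reference mice, 18.47 to 18.78 in the HFoleic mice and 18.68 to 18.95 in the HFepa mice. The part of feeding state in the Arntl values was not tested.

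Mice that differed in Arntl differed also in other clock genes. Over the 24 mice 16 relations of Arntl were computed, with the other 5 tested members and the 11 Per-phase genes, and 13 passed an adjusted p of 0.05 (permutation tests with 100000 resamples, two-sided, Benjamini-Hochberg over the 16). These relations were computed after earlier results of the same mice were known, and all probes of a mouse share 1 array. The share of all genes that would pass the same test against Arntl was not computed.

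Nfil3, Clock and Cry1 rose and fell with Arntl. For Nfil3, Pearson's r was 0.81 (permutation p = 1e-05, the smallest the resamples can give, adjusted p = 4e-05) and Spearman's rho 0.77 (p = 4e-05, adjusted p = 0.000128). For Clock, r was 0.71 (permutation p = 0.00014, adjusted p = 0.00032) and rho 0.52 (p = 0.0102, adjusted p = 0.0136). For Cry1, r was 0.64 (permutation p = 0.00072, adjusted p = 0.00128) and rho 0.61 (p = 0.00209, adjusted p = 0.00372). E2f8 (r = -0.26, rho = -0.19, permutation adjusted p = 0.251 for r and 0.383 for rho) and Arntl2 (r = -0.24, rho = -0.15, adjusted p = 0.270 and 0.484) did not pass.

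Of the Per-phase genes, 10 of 11 ran against Arntl past the threshold. Dbp had r = -0.89 (permutation p = 1e-05, adjusted p = 4e-05) and rho = -0.84 (p = 1e-05, adjusted p = 5.33e-05). HFepa replicate 4, lowest in Arntl at 7.30, was highest in Dbp at 14.35, and HFepa replicate 2, highest in Arntl at 9.72, was lowest in Dbp at 9.42. The mouse lowest in Arntl was also highest in Dbp in the reference group (replicate 8, 9.11 and 12.90) and in the HFoleic group (replicate 6, 8.11 and 13.96). The arrays of reference replicate 8, HFoleic replicate 6 and HFepa replicate 4 all lay in row 2 of slide 3. HFepa replicate 7 lay there too and came next in its group, with 8.27 for Arntl and 13.26 for Dbp. The part of array position in these values was not tested. Tef (r = -0.83), Per2 (-0.80), Nr1d2 (-0.79) and Per3 (-0.75) followed, then Bhlhe40 (-0.65), Usp2 (-0.64), Nr1d1 (-0.57), Hlf (-0.49) and Cry2 (-0.46), with adjusted permutation p from 4e-05 to 0.0298. Their rho ran from -0.86 for Nr1d2 to -0.47 for Usp2. Per1 was the exception, with r of -0.0038 and rho of 0.22 (adjusted permutation p = 0.986 and 0.335). Within groups its r was 0.46 in the reference mice, -0.84 in the HFoleic mice, where it passed (exact permutation, adjusted p = 0.0253), and -0.26 in the HFepa mice.

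**Figure D3:**
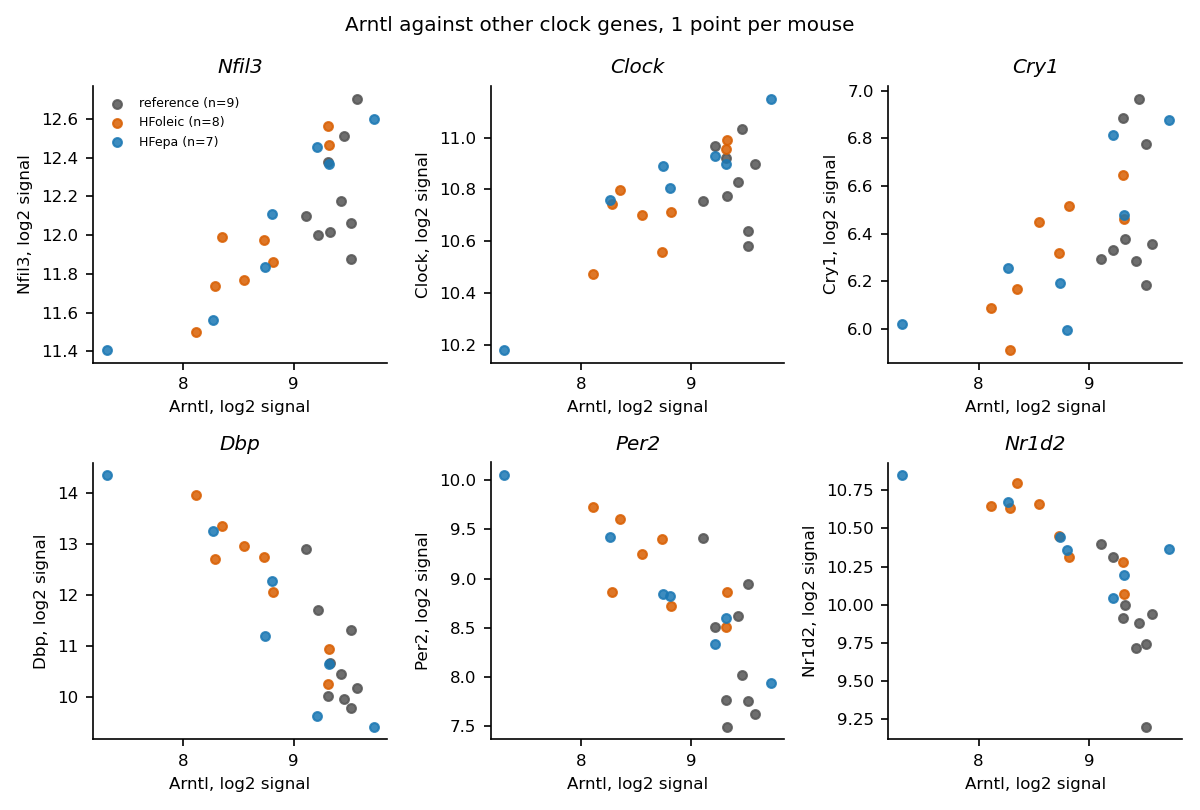
Log2 signal of Nfil3, Clock, Cry1, Dbp, Per2 and Nr1d2 (vertical axes) against that of Arntl (horizontal axes), 1 point per mouse, coloured by group. The first 3 genes were higher where Arntl was higher and the other 3 lower, and HFepa replicate 4 is the single point at an Arntl signal of 7.30.

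With the group means subtracted and values permuted within groups, 13 of 16 relations also passed, among them Nfil3 (r = 0.83), Clock (r = 0.78), Cry1 (r = 0.63) and Dbp (r = -0.88). HFepa replicate 4 and HFoleic replicate 6 were the mice farthest from the median of Arntl. Without them 9 passed, among them Nfil3 (r = 0.74), Cry1 (r = 0.59) and Dbp (r = -0.86). The relations of Clock (r = 0.42, adjusted permutation p = 0.0773) and Usp2 (r = -0.30, adjusted permutation p = 0.212) no longer passed by r or rho. The change in r was not tested. Hlf (r = -0.36) and Cry2 (r = -0.45, close to its value over all mice) did not pass by r but passed by rho (adjusted permutation p = 0.0345 and 0.0239). Within the 3 slides of 8 mice, by exact permutation, 0, 2 and 8 of 16 passed. The r of Nfil3 within slides was 0.50, 0.90 and 0.82, that of Clock 0.37, 0.74 and 0.78, that of Cry1 0.33, 0.71 and 0.65, and that of Dbp -0.85, -0.93 and -0.89. That of Usp2, which passed over all mice, was 0.67, -0.48 and -0.77, of opposite sign within the first slide. With slide means subtracted 12 passed. Among the 24 analyses leaving out 1 mouse, 11 to 13 passed.

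Within groups, which hold fewer mice and differ in their spread of Arntl, the counts were lower. In the 9 reference mice r was -0.19 for Clock, 0.16 for Cry1 and 0.35 for Nfil3, and by exact permutation 0 of 16 relations passed (4 at an unadjusted p under 0.05, all with Per-phase genes). In the 8 HFoleic mice 6 passed by exact permutation, with r of 0.92 for Nfil3 and 0.83 for Cry1. In the 7 HFepa mice 10 passed by exact permutation, with r of 0.95 for Clock and 0.94 for Nfil3. For Dbp r was -0.73, -0.95 and -0.94 in the reference, HFoleic and HFepa mice. The differences in r between groups were not tested.

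**Figure D4:**
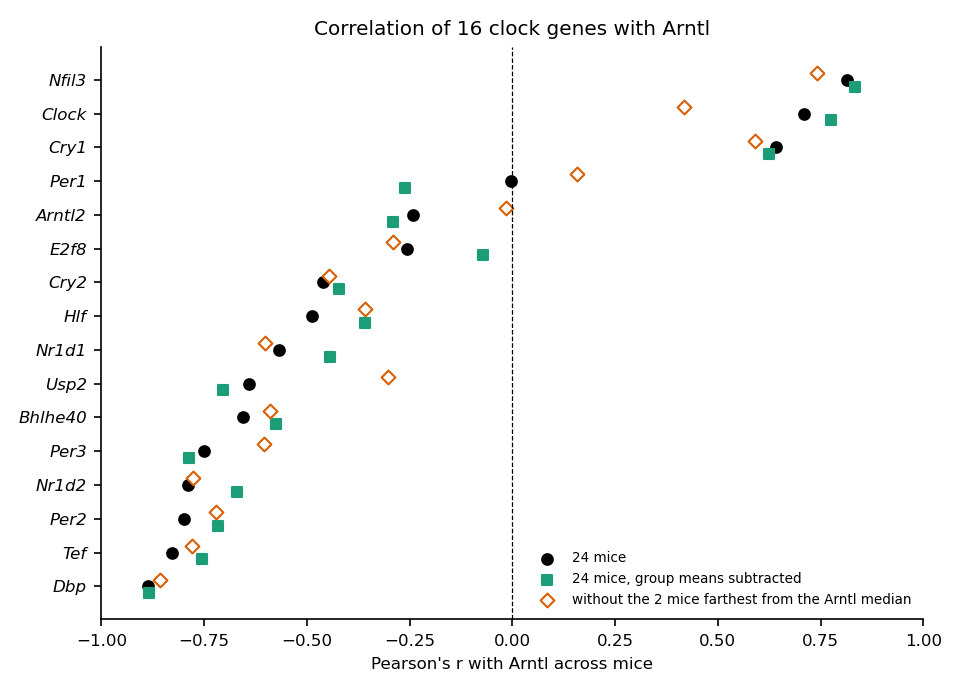
Pearson's r with Arntl of 16 clock genes over 24 mice (filled circles), after subtraction of the group means (squares) and without the 2 mice farthest from the Arntl median (open diamonds). Nfil3, Clock and Cry1 lie to the right, at 0.81, 0.71 and 0.64 over all mice, and Dbp at -0.89 is farthest to the left; Clock and Usp2 move most when the 2 mice are left out.

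**Figure D5:**
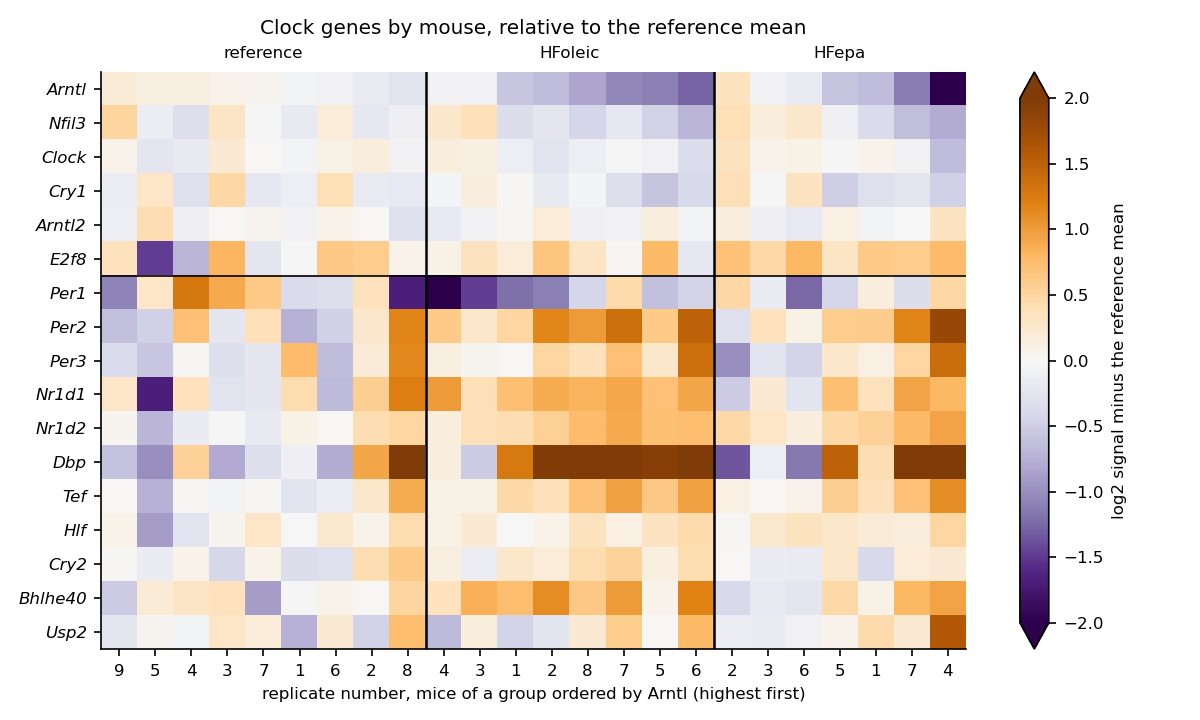
Log2 signal minus the reference mean for the 6 tested members (above the line) and 11 Per-phase genes (below), 1 column per mouse labelled by replicate number, mice ordered within each group by Arntl, highest first. The colour scale ends at 2 in either direction, and the last column of each group (reference replicate 8, HFoleic replicate 6 and HFepa replicate 4) has the lowest Arntl and the highest Dbp of its group. The arrays of these last columns all lay in row 2 of slide 3.

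The pattern of Arntl among mice was set beside those of 19046 other genes with values on all arrays, by r after subtraction of the group means, as a description with no test. Nfil3 ranked 5, Clock 9 and Cry1 72 from the highest, and Dbp ranked 1, Per3 3, Wee1 4 and Tef 8 from the lowest, where percentiles 1 and 99 over all genes were -0.56 and 0.55. E2f8 (r = -0.07) and Arntl2 (r = -0.29) lay inside these percentiles. So did the Per-phase genes Nr1d1 (r = -0.44), Cry2 (-0.42), Hlf (-0.36) and Per1 (-0.26). Outside the lists, the genes most like Arntl included Pxmp4 (r = 0.92), Clpx (0.91), Lgalsl (0.86), Lrfn3 (0.81), Pnrc1, Eml3, Dpp9, Tars and Asap2. The most unlike were Tmem192 (r = -0.79), Gpr146 (-0.77), Pcsk4, Cnppd1, Phactr1, Hexdc, Osbpl1a, Zc3hav1, Psmb9 and Tmem184b. Of the genes named here, Pxmp4 (-0.41, adjusted p = 0.0409), Lrfn3 (-0.55, adjusted p = 0.0113) and Asap2 (-0.50, adjusted p = 0.0315) were lower in HFoleic than in reference by limma.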

How the data were processed

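The authors deposited for each array the text output of Agilent Feature Extraction 10.10.1.1, whose spot signals and local background are raw intensity values per the file headers. Its processed signal is an intensity after background correction by that software, and marks for outlier, saturated and well-above-background spots are 0 or 1. A further deposited matrix holds log2 median signal, filtered by an unstated rule and quantile normalized by the authors (32176 probes; 15 of the 17 member probes); its columns correlated with the scanner values at 0.9997 or more.

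Here log2 median signals were averaged over the spots of a probe, without spots marked as outliers (134 to 627 per array), 30003 of 56605 probes were kept because, in some group, 75% or more of the arrays had them well above background, and values were quantile normalized. A group-means model over 24 arrays was fitted in limma 3.58.1 (R 4.3.3; the data.table package, version 1.17.8), with two-sided contrasts and Benjamini-Hochberg adjustment over all tested probes, called at 0.05. The study names lmFit, pairwise t-tests and this adjustment, and the moderated contrasts were chosen here. The t-test is called the methods' t-test. The fit was tested on simulated data. Each gene is read from its brightest tested probe. Correlations used permutation, exact for fewer than 10 mice (numpy 2.4.6, scipy 1.17.1, pandas 2.3.3, Python 3.11.15; figures, matplotlib 3.10.9).

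Groups came from the sample labels. The members, gene lists and tests were chosen with earlier results of these data known. Genes named were the members, list genes that were called or needed as examples, and the 10 genes most and least like Arntl outside the lists, without unnamed transcripts; some of these genes are not reported here. Alternatives were the deposited table, processed signal scaled to the 75th percentile, normexp (offset 50), median centring, other filters, slide, slide row or replicate number as a block, the t-test, arrays of the compared groups only, mean over probes and leaving out mice. The number of arrays limits the precision.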

Additional observations from a re-analysis of the deposited data

Results flagged for a closer look

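Clock stood apart in HFepa replicate 4. Its log2 signal there was 10.18, while the nearest of the other HFepa mice read 10.76, and this gap was 0.595 of the range of the group, above Dixon's critical value of 0.568 for 7 mice. It was the only value so marked among the 18 combinations of 6 members and 3 groups, and chance marks about 1 in 20. The same mouse had the lowest Arntl of all 24, at 7.30. Its array had 30271 probes well above background and a median signal of 73.0, both within the range of the other arrays.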

How the results depend on the processing

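The count of called member probes, 0 in the 3 comparisons, kept its value under all alternatives except for HFoleic against reference, where Arntl was called, a count of 1, by the methods' t-test and with only the arrays of the compared groups, and leaving out 1 mouse gave 0 to 1. Over the whole array, that t-test called 1746 probes and the compared arrays alone 1844 in HFoleic against reference. The Per-phase count in that comparison, 4 of 21 probes, was 1 without a filter on dim probes and 1 to 10 leaving out 1 mouse. In HFepa against reference, 0 Per-phase probes became 0 to 2, the 2 without reference replicate 8. Over the whole array, the 118 probes called in HFepa against reference became 0 by the methods' t-test or without a filter on dim probes, 13 with only the compared arrays, 55 genes by the mean of the probes of a gene, 60 with the processed signal, and 0 to 496 leaving out 1 mouse. The 13 relations of Arntl became 0, 2 and 8 within slides 1, 2 and 3, where 8 mice limit the test, and 11 to 13 leaving out 1 mouse.

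Differences that changed sign were all near 0 and not called. Clock in HFepa against reference was 0.00020 with median centring, 0.025 as the mean of its probes, and -0.078 to 0.083 leaving out 1 mouse. Leaving out 1 mouse also spanned 0 for Arntl2 (-0.054 to 0.034 in HFoleic and -0.013 to 0.087 in HFepa, each against reference) and, in HFepa against HFoleic, for Arntl (-0.076 to 0.33), Cry1 (-0.026 to 0.12) and Nfil3 (-0.026 to 0.17). The r of Per1 with Arntl was 0.055 with slide means subtracted, 0.60 and 0.17 within slides 1 and 2, and 0.16 without the 2 mice farthest from the Arntl median, and -0.092 to 0.15 leaving out 1 mouse. Within slide 1, r was 0.083 for Arntl2 and 0.67 for Usp2, whose relation over all mice, -0.64, had passed, and for Arntl2 it was -0.42 to 0.019 leaving out 1 mouse. The cause was not tested.

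For same-numbered mice of different groups, r over probes of their deviations from the group means ran from -0.30 to 0.35, above 0.1 in 5 of 21 pairs. It was not computed for differently numbered mice, so whether the numbers carry a pairing was not tested. With the replicate block, member counts stayed at 0, the Per-phase count in HFoleic against reference was 2, and Arntl2 in HFepa against reference was -0.0071.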
